A study of Mus musculus with 20 samples.

Results

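The genes of branched-chain amino acid breakdown were compared between the heart ventricles of old and young mice. The group consists of 10 enzymes and subunits of leucine, isoleucine and valine breakdown, listed by name: Bcat2, Bckdha, Bckdhb, Dbt, Bckdk, Ivd, Mccc1, Mccc2, Hibch and Hibadh. All 10 were measured above the filter on low values on each of the 20 arrays, and they are 10 of the 9275 genes tested. The 20 samples were 10 old and 10 young male C57BL/6J mice, aged 25 to 28 and 4 to 6 months. The labels name no genetic change and no treatment in either group, and give the same housing for both. Each sample was total RNA from frozen ventricle on its own Affymetrix MOE430 2.0 array, on which several short probes toward the 3′ end of a transcript make up a probe set. Values are log2 GCRMA signals, so a difference of 1 is a doubling, and levels are not compared between genes because probes differ in brightness.

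Leucine, isoleucine and valine are essential amino acids that muscle and heart can burn in their mitochondria. A transaminase first moves their amino group onto another carbon skeleton, and the branched-chain ketoacid dehydrogenase complex then removes a carboxyl group, which commits the remaining skeleton to oxidation. A kinase switches this complex off by phosphorylation and a phosphatase switches it on. Each amino acid then follows its own arm, and the arms end in acetyl-CoA, acetoacetate or propionyl-CoA, whose carbon can enter the tricarboxylic acid cycle.

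The summed level of 10 genes listed as ventricular muscle markers was alike, at 17.96 to 18.17 in old and 18.05 to 18.19 in young arrays. Of the 10, 1 was called higher in old (Myh7, the slow myosin heavy chain) and 0 were called lower. This sum is set by the brightest genes of the list. Irx4, a dimmer one, differed by -0.58 and missed the threshold (limma adjusted p = 0.0845). It read 4.86 to 6.87 in old and 6.01 to 7.05 in young arrays, so an equal ventricular content is not shown. Other transcripts differed between old arrays. Myl7, the atrial myosin light chain, exceeded a log2 value of 10 in 7 of 10 old arrays and stayed at or below 2.44 in every young array, and 4 of 8 atrial markers, the 4 that passed the filter, were higher in old (summed level 10.74 to 16.60 in old and 10.05 to 12.40 in young arrays). Transcripts of brown and white fat were high in old array 8 (Ucp1 at 12.45, Adipoq at 12.02) and old array 9 (8.04 and 9.15), while in the young arrays Ucp1 and Adipoq lay at or below 2.39. Adipoq also read 6.30, 6.52 and 6.77 in old arrays 2, 3 and 6. The summed level of 8 adipocyte markers was 14.28 to 16.16 in old and 14.19 to 14.42 in young arrays, with Car3 the 1 called higher of 3 tested and Lep under the filter on all arrays. Macrophage markers were higher in old for 9 of 10 genes (summed level 12.25 to 13.20 against 11.55 to 12.16), fibroblast markers for 4 of 8 (12.998 to 13.96 against 12.65 to 13.29) and blood markers for 3 of 5 (10.00 to 14.23 against 8.85 to 9.68). Smooth muscle markers were called higher for 1 of 4 genes (9.63 to 13.76 against 9.15 to 11.42) and endothelial markers for 1 of 7 (10.77 to 11.78 against 10.94 to 11.44). For all these lists, their part in the results was not tested. Fewer muscle cells in a sample and less RNA per muscle cell cannot be told apart in such tissue. The 20 arrays also fell into 5 sets of 2 old and 2 young arrays each, found here from their shared deviations; the labels do not name them. The 3′ to 5′ difference of the control probe sets, a measure of RNA breakdown, was 0.40 ± 0.10 in old and 0.39 ± 0.08 in young arrays (SD, 10 arrays each), and a permutation test of the means, two-sided, gave p = 0.923. Probe sets brighter than log2 4 did differ in number: they made up 38.7% ± 0.60 in old and 38.1% ± 0.18 in young arrays (same permutation test, p = 8e-05).

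Breakdown genes were lower in the old samples than in the young samples along most of the pathway. The counts given first include the 7 old arrays in which Myl7, an atrial transcript, exceeded a log2 value of 10. They take no account of that transcript, so a fall in ventricular muscle itself is not shown by them. Of the 10 genes, 8 fell and 0 rose at an adjusted p under 0.05 (limma, Benjamini-Hochberg over all genes tested), and at an unadjusted p under 0.05 the counts were 9 and 0. Over all genes tested, 7.49% were called lower and 11.2% higher. The median of the 10 log2 differences, old minus young, was -0.52, against 0.01 over all genes, and all 10 estimates were below 0, as were 48.7% of all genes. Scaling shifted the balance of calls over all genes: 40.1% of calls were toward lower values as deposited, 56.8% after quantile normalization and 31.4% after centring each array on its median. The count of breakdown genes that fell was 8 with quantile normalization, where 11.5% of all genes were called lower, and 7 with median centring, where 5.64% were.

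The counts were repeated with the atrial and fat transcripts taken into account. With an index of Myl7 and Sln added as a covariate in limma, 1 of the 10 genes was called lower (Ivd; 0.927% of all genes), and 6 were lower at an unadjusted p under 0.05. Without the 7 old arrays with Myl7 above 10, which leaves 3 old against 10 young arrays, 0 were called by limma (0.679% of all genes), 4 were lower at an unadjusted p under 0.05, and the median difference was -0.29. All 10 estimates stayed below 0 in both fits. Without old arrays 8 and 9, 7 were called lower (4.75% of all genes) and the median difference was -0.40, and Bckdhb lost its call. That fit keeps old arrays 2, 3 and 6, in which Adipoq was at 6.30 to 6.77. The part of any atrial or fat tissue in the differences was not tested beyond these values.

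**Figure D1:**
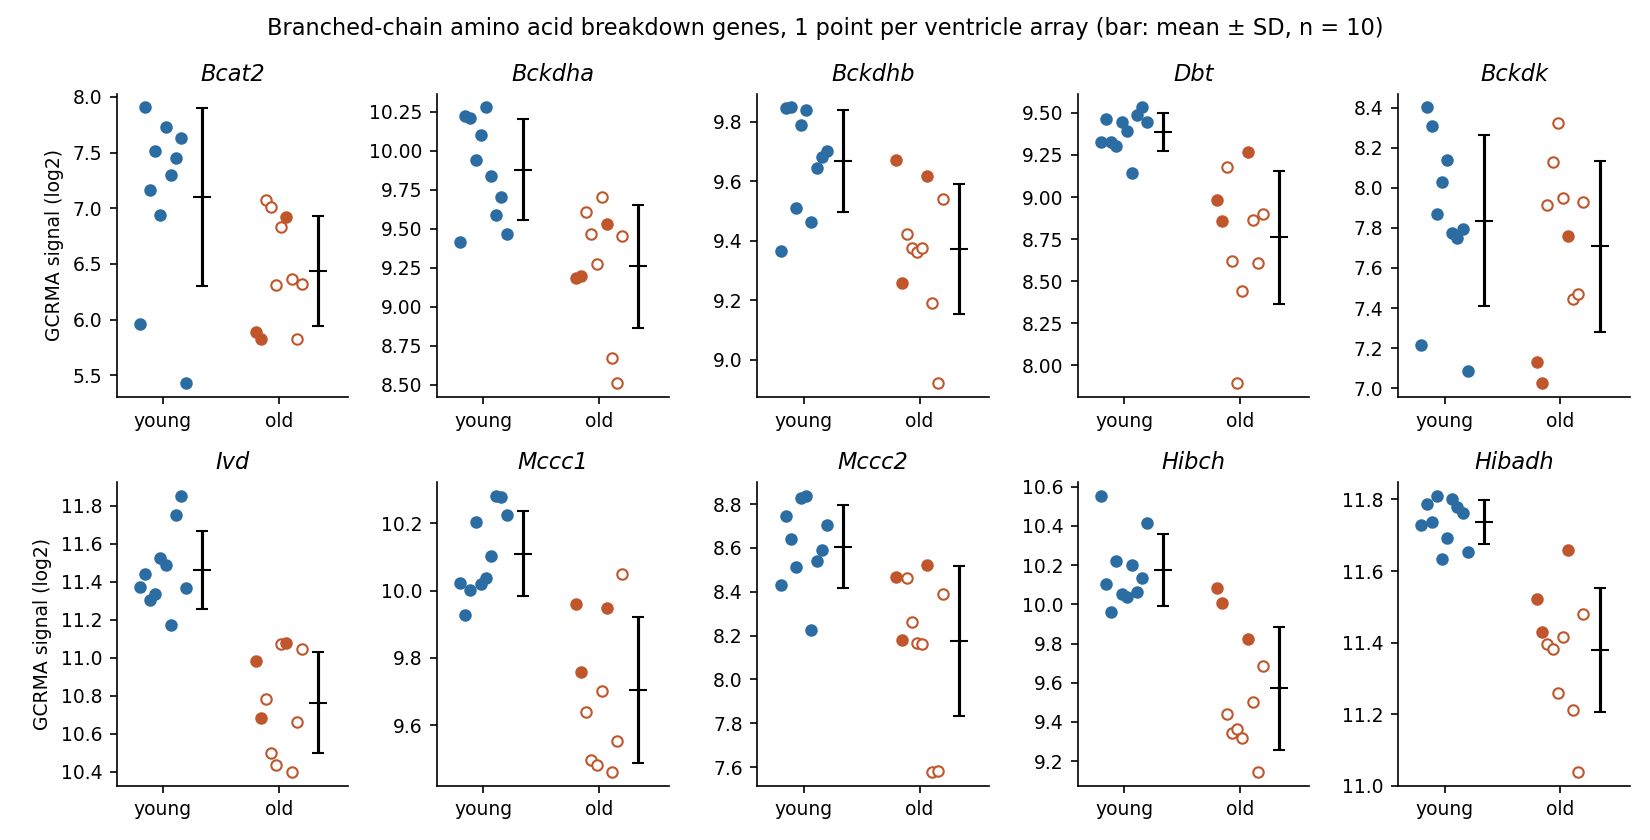
Log2 GCRMA signal of each breakdown gene, 1 point per ventricle array in young and old mice, with the mean ± SD of each group (n = 10); open circles are the 7 old arrays with Myl7 above 10. The old and young points of Ivd do not overlap, those of Dbt, Hibch and Hibadh overlap at their edges, and those of Bckdk cover the same range.

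The first step is Bcat2, the mitochondrial branched-chain aminotransferase that removes the amino group. Its signal was 5.82 at the lowest, 6.34 at the median and 7.07 at the highest in old arrays, and 5.43, 7.37 and 7.91 in young arrays. All 10 old arrays lay under the young median, but the groups overlapped, since young arrays 11 and 20 read 5.96 and 5.43. The difference was -0.66 ± 0.27 (SE, n = 10 each; 95% interval -1.23 to -0.10), which missed the threshold (limma adjusted p = 0.0941). Both low young arrays belong to the same array set as old arrays 1 and 2, which read 5.89 and 5.83. With young array 11 left out the adjusted p was 0.0414, with young array 20 left out it was 0.0132, and with the array sets as a block it was 0.00592. Of 20 fits that left out 1 array, only those 2 gave a call, and each dropped a low young array. In the others the adjusted p reached 0.16. With the sets and the atrial index together the difference was -0.34 (limma adjusted p = 0.395). Bcat1, the cytosolic aminotransferase, lay between 2.10 and 2.80 in all its 3 probe sets, under the filter on all 20 arrays.

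The ketoacid dehydrogenase complex, the committed step, was lower in old hearts in all 3 of its listed subunits. Bckdha and Bckdhb encode the alpha and beta subunits of the decarboxylase, and Dbt encodes the acyltransferase core that passes the acyl group to coenzyme A. Bckdha signal ran from 8.51 over a median of 9.36 to 9.70 in old arrays, and from 9.41 over 9.89 to 10.28 in young arrays. Of the 10 old arrays, 5 lay below every young array, and the lowest were old arrays 9 and 8 with 8.51 and 8.67, the 2 arrays with the most fat transcript. Bckdha fell by 0.62 ± 0.15 (SE; 95% interval -0.94 to -0.30; limma adjusted p = 0.00709), which is 34.9% less signal. Without arrays 8 and 9 its difference was -0.45 (limma adjusted p = 0.0211).

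Bckdhb signal was 8.92, 9.38 and 9.67 at the lowest, median and highest old array and 9.37, 9.69 and 9.85 in young arrays. In all, 4 old arrays lay below every young array. Bckdhb fell by 0.30 ± 0.09 (SE; 95% interval -0.49 to -0.10; limma adjusted p = 0.0328), or 18.5%. In 8 of 20 fits that left out 1 array (old 2, 5, 8 or 9, or young 12, 13, 15 or 16) the adjusted p was 0.0503 to 0.0594 and the call was lost, while the difference stayed at -0.29 to -0.24. The call was also lost after median centring (-0.26, adjusted p = 0.0671).

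Dbt showed a tight young group and a spread old group. Its signal was 7.89, 8.86 and 9.26 at the lowest, median and highest old array and 9.14, 9.42 and 9.53 in young arrays, with an SD of 0.40 in old and 0.11 in young. Below every young array lay 8 of 10 old arrays, and old array 5 was lowest. Dbt fell by 0.63 ± 0.13 (SE; 95% interval -0.89 to -0.36; limma adjusted p = 0.00172), or 35.2%. Dld, the dihydrolipoamide dehydrogenase shared with other ketoacid complexes, differed by -0.20 ± 0.11 and missed the threshold (limma adjusted p = 0.217).

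Bckdk, the kinase that inactivates the complex, did not pass the test. Its signal was 7.02, 7.84 and 8.32 at the lowest, median and highest old array and 7.09, 7.83 and 8.40 in young arrays, so both groups covered nearly the same range. The difference was -0.13 ± 0.18 (SE; 95% interval -0.50 to 0.24; limma adjusted p = 0.665), an interval that still holds a fall as large as that of Bckdhb. Most of its spread was between array sets: 89.1% of the residual variance of Bckdk lay there, and the difference within a set ran from -0.33 to 0.05. Without the 7 old arrays with Myl7 above 10 its difference was -0.53 (limma adjusted p = 0.308). A second Bckdk probe set lay at 1.81 to 2.01 and was under the filter on all arrays.

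The balance of subunits and kinase was described by the difference within each array, with no test. Bckdha minus Bckdk was 1.55 ± 0.41 in old and 2.04 ± 0.18 in young arrays (SD, n = 10 each). Bckdhb minus Bckdk was 1.67 ± 0.45 in old and 1.83 ± 0.34 in young. Dbt minus Bckdk was 1.05 ± 0.71 in old and 1.55 ± 0.44 in young. The size of such a difference has no meaning by itself, because the probes differ, and only its change between groups can be read. Relative to the kinase signal, the subunit signal differed by -0.49 for Bckdha, -0.17 for Bckdhb and -0.50 for Dbt. The change was smaller or reversed in the fits that took atrial transcripts alone into account. It was -0.22, 0.14 and -0.09 with the atrial index as a covariate, and -0.04, 0.38 and 0.18 when the 7 old arrays with Myl7 above 10 were left out. With the array sets as a block and the index together, the age differences were -0.42 for Bckdha, -0.21 for Bckdhb and -0.49 for Dbt, against -0.11 for Bckdk. Ppm1k, the phosphatase that activates the complex, was at 9.08, 9.24 and 9.81 in old and 9.17, 9.71 and 9.92 in young arrays, a difference of -0.26 ± 0.11 (95% interval -0.50 to -0.02) that missed the threshold (limma adjusted p = 0.124). With the array sets as a block its adjusted p was 0.022, in a fit that called 16.7% of all genes lower. That was the 1 call for Ppm1k in 12 fits with other settings, over which its difference ran from -0.31 to -0.012. Klf15, a transcription factor known to drive genes of this pathway in heart and muscle, differed by -0.29 ± 0.14 (limma adjusted p = 0.159).

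In the leucine arm all 3 listed genes fell. Ivd, the isovaleryl-CoA dehydrogenase that takes the first oxidation step after the complex, gave the clearest separation. Ivd signal was 10.40, 10.74 and 11.08 at the lowest, median and highest old array and 11.17, 11.41 and 11.85 in young arrays. Every old array lay below every young array, which held for 0.42% of all genes tested and for no other of the 10 breakdown genes. Ivd fell by 0.70 ± 0.11 (SE; 95% interval -0.92 to -0.47; limma adjusted p = 0.000133), or 38.3%. Its difference was -0.68 (adjusted p = 0.0107) once the atrial index was a covariate, and -0.55 (adjusted p = 0.0519) when the 7 old arrays with Myl7 above 10 were left out. A second probe set of Ivd read 8.98, 9.63 and 9.91 in old and 9.66, 10.13 and 10.55 in young arrays, a difference of -0.56 (limma fit of all probe sets, adjusted p = 0.012; 5.91% of probe sets were called lower).

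Mccc1 and Mccc2 encode the biotin-carrying alpha subunit and the beta subunit of methylcrotonyl-CoA carboxylase, the next enzyme for leucine. Mccc1 signal was 9.46, 9.67 and 10.05 in old and 9.93, 10.07 and 10.28 in young arrays, again lowest, median and highest. Below every young array lay 7 of 10 old arrays. Mccc1 fell by 0.41 ± 0.09 (SE; 95% interval -0.59 to -0.22; limma adjusted p = 0.00293), or 24.5%. Its second, dimmer probe set did not show this: it read 6.15 ± 0.33 in old and 6.13 ± 0.41 in young arrays (SD, n = 10 each), a difference of 0.02 (adjusted p = 0.947), and the mean of both probe sets differed by -0.19 (adjusted p = 0.233). The call for Mccc1 therefore holds for 1 of its 2 probe sets.

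Mccc2 signal was 7.58, 8.22 and 8.52 in old and 8.23, 8.62 and 8.84 in young arrays. As many as 5 old arrays lay below every young array, and old arrays 8 and 9 were lowest, both at 7.58. Mccc2 fell by 0.43 ± 0.12 (SE; 95% interval -0.68 to -0.17; limma adjusted p = 0.0178), or 25.7%. Without arrays 8 and 9 the difference was -0.28 (adjusted p = 0.0442). The other 2 probe sets of Mccc2 differed by -0.54 and -0.57 and missed the threshold (adjusted p = 0.0915 and 0.0772 in the fit of all probe sets).

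Promoter sequences are shown for the 3 leucine arm genes, which fell, and for the kinase, which did not pass the test, because these 4 can be set side by side. Each is the 250 bases before a start annotated in RefSeq's GRCm38.p6 annotation, written 5′ to 3′ on the strand of the gene. Every CCAAT or its reverse complement ATTGG is in capitals. The gene span of Ivd begins at 118861959 and that of Mccc1 ends at 36000694, so the last bases of these windows lie inside the gene span. The windows are chr2:118861744-118861993 on the plus strand for Ivd, chr3:36000679-36000928 on the minus strand for Mccc1, chr13:100015640-100015889 on the minus strand for Mccc2 and chr7:127903823-127904072 on the plus strand for Bckdk.
Ivd: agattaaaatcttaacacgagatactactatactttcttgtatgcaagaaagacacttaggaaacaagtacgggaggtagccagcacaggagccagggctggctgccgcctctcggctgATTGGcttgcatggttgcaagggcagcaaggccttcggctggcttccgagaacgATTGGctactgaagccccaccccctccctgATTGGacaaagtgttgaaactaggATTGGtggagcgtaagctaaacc
Mccc1: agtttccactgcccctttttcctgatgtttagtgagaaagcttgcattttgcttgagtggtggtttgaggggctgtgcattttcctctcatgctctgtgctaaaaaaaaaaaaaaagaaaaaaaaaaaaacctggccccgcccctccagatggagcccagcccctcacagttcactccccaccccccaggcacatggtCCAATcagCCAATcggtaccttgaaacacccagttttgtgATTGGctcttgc
Mccc2: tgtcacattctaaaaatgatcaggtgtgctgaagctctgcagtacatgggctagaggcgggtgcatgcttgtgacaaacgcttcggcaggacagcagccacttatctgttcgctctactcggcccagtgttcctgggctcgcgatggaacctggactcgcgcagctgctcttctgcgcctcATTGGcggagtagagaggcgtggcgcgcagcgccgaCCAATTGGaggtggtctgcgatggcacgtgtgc
Bckdk: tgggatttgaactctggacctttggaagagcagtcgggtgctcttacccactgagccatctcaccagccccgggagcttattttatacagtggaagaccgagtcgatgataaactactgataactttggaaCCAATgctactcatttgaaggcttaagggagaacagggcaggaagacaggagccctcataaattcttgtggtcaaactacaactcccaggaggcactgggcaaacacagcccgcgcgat

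The Ivd window held 4 copies of CCAAT on either strand, the Mccc1 and Mccc2 windows 3 each, and the Bckdk window 1. The last copy in the Ivd window and the last in the Mccc1 window lie inside the gene span. In Mccc2 a pair of these copies overlap as CCAAT and ATTGG share bases. The table of promoters had 11 windows for 9 of the 10 genes, Dbt being absent from it. CCAAT was found in 6 of the 11 windows, for 6 of the 9 genes (Bckdhb, Bckdk, Hibadh, Ivd, Mccc1 and Mccc2), and in 33.9% of all 32851 windows of this length. GGGCGG, searched on both strands, was found in 4 of the 11 windows, for 4 genes (Bckdhb, Hibadh, Hibch and Mccc1), and in 32.7% of all windows. CACGTG was found in 1 of the 11 windows, that of Mccc2, and in 6.02% of all windows. AAGGTCA was in no window of these genes, and in 4.08% of all windows. Genes with and without CCAAT both fell, Hibch and Bckdha having none in their windows, and these matches describe letters only.

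The valine arm was lower in both listed genes. Hibch is the hydrolase that frees 3-hydroxyisobutyrate from coenzyme A, and Hibadh oxidises that product. Hibch signal was 9.15, 9.47 and 10.08 at the lowest, median and highest old array and 9.96, 10.12 and 10.55 in young arrays. Below every young array lay 8 of 10 old arrays; the 2 others were old arrays 1 and 2, whose array set was also highest among young arrays (10.55 and 10.41). Hibch fell by 0.60 ± 0.12 (SE; 95% interval -0.84 to -0.36; limma adjusted p = 0.000998), or 34.1%. Its other probe set differed by -0.58 (adjusted p = 0.00306). With the array sets as a block and the atrial index as a covariate together the difference was -0.46 (adjusted p = 0.00935), while it was -0.20 in the fit of 3 old against 10 young arrays (adjusted p = 0.453).

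Hibadh signal was 11.04, 11.41 and 11.66 in old arrays and 11.63, 11.75 and 11.81 in young arrays. All old arrays except array 7 lay below every young array. The young arrays were close to each other, with an SD of 0.06 against 0.17 in old. Hibadh fell by 0.36 ± 0.07 (SE; 95% interval -0.51 to -0.21; limma adjusted p = 0.00178), or 22.0%. Its other probe set differed by -0.34 (adjusted p = 0.00396), so both probe sets of Hibadh, as of Hibch and Ivd, were called lower.

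**Figure D2:**
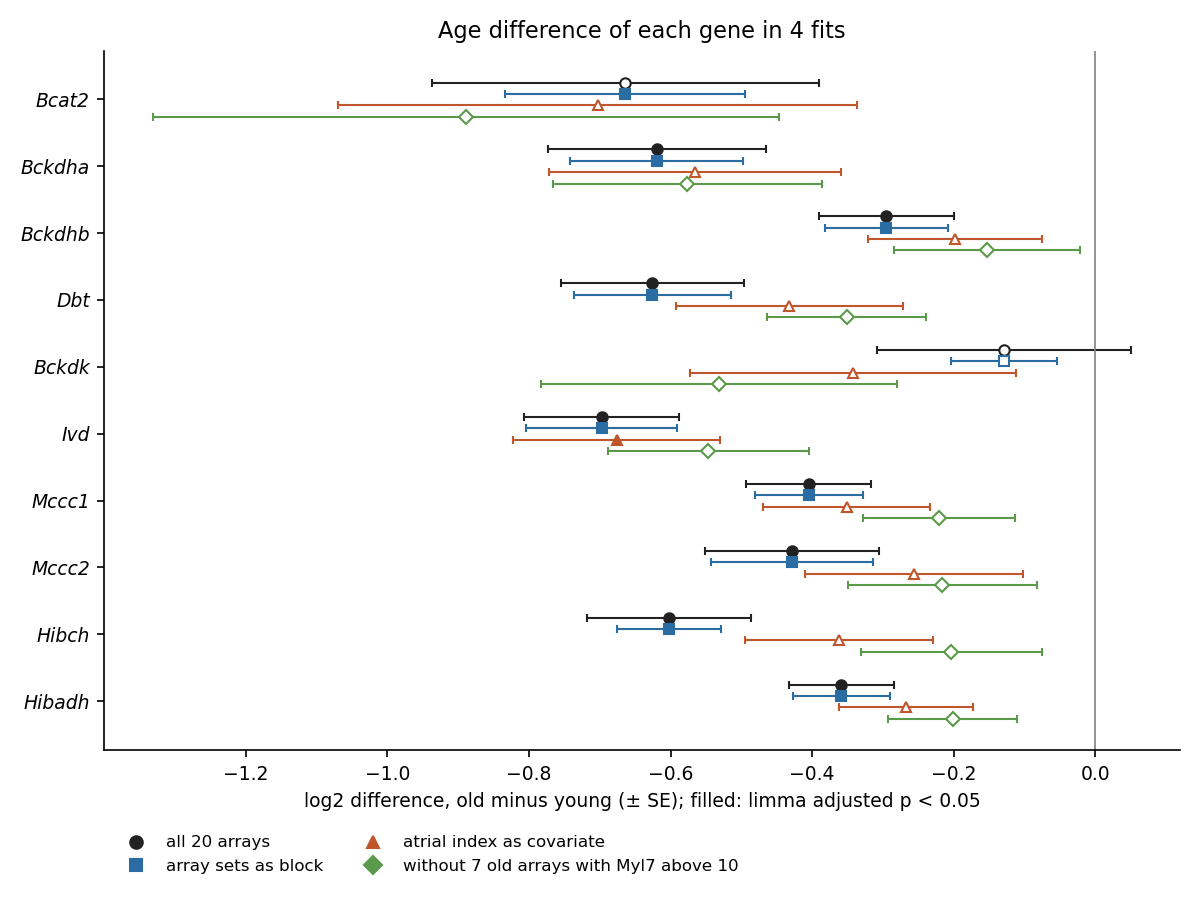
Log2 difference, old minus young, ± SE of each breakdown gene in 4 limma fits: all 20 arrays, array sets as a block, the atrial index as a covariate, and 3 old against 10 young arrays after the 7 old arrays with Myl7 above 10 were left out; filled symbols passed an adjusted p of 0.05. All estimates lie below 0, and Ivd alone is filled in the fit with that index.

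The fits with fewer old arrays or with the atrial index moved the genes by unequal amounts. Bckdha stayed near its first estimate, at -0.57 and -0.58 in limma with the index and with the 7 arrays left out (adjusted p = 0.134 and 0.131), as the errors widened. Dbt was at -0.43 and -0.35 (adjusted p = 0.140 and 0.119). The smaller estimates without the 7 arrays were -0.15 for Bckdhb, -0.22 for Mccc1 and for Mccc2, and -0.20 for Hibch and for Hibadh. Estimates for Bcat2 and Bckdk became larger instead, at -0.89 and -0.53, though neither passed the threshold (adjusted p = 0.334 and 0.308). The 3 remaining old arrays are arrays 1, 2 and 7, and arrays 1 and 2 belong to the array set in which Bcat2 and Bckdk were low in young arrays too. With only these 3 old animals, the precision is limited.

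Single old animals differed in how many of the 10 genes lay below every young array. The count was 8 in old arrays 2, 5, 8 and 9, 6 in array 6, 5 in array 4, 4 in arrays 1, 3 and 10, and 2 in array 7. The share of all genes below every young array was not taken for single old arrays. The counts therefore have no background to be read against and only describe these 10 genes. The median deviation of the 10 genes from the young mean was largest in array 9, at -0.79, and smallest in array 7, at -0.14. Array 2 had Myl7 at 8.27 and 8 genes below every young array, Bckdk among them. Array 10 had Myl7 at 14.55, the highest of all, and 4 genes. The counts were 4, 8 and 2 in arrays 1, 2 and 7, and 4 to 8 in the 7 old arrays with Myl7 above 10. A relation of the counts to Myl7 was not tested. The genes of array 7 below every young array were Ivd and Hibch.

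Within the array sets the direction was shared. The 2 old arrays averaged lower than the 2 young arrays in all 5 sets for 8 of the 10 genes, and in 4 of 5 sets for Bcat2 and Bckdk. The share of all genes with such a pattern was not counted. The sets divide the same 20 arrays, so this restates the main differences set by set. The range within sets was -1.06 to -0.40 for Ivd, -0.79 to -0.43 for Hibch, -1.25 to -0.45 for Dbt and -0.91 to -0.25 for Bckdha. For Bcat2 it was -1.34 to 0.16, the set with 0.16 being the one that holds young arrays 11 and 20. With the sets as a block in limma, 9 of 10 genes were called lower, Bckdk being the exception, where 16.7% of all genes were called lower. With the sets and the index together, Ivd and Hibch were called, and 1.89% of all genes. Because the sets were found from these same values, p-values with the block are somewhat too small.

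**Figure D3:**
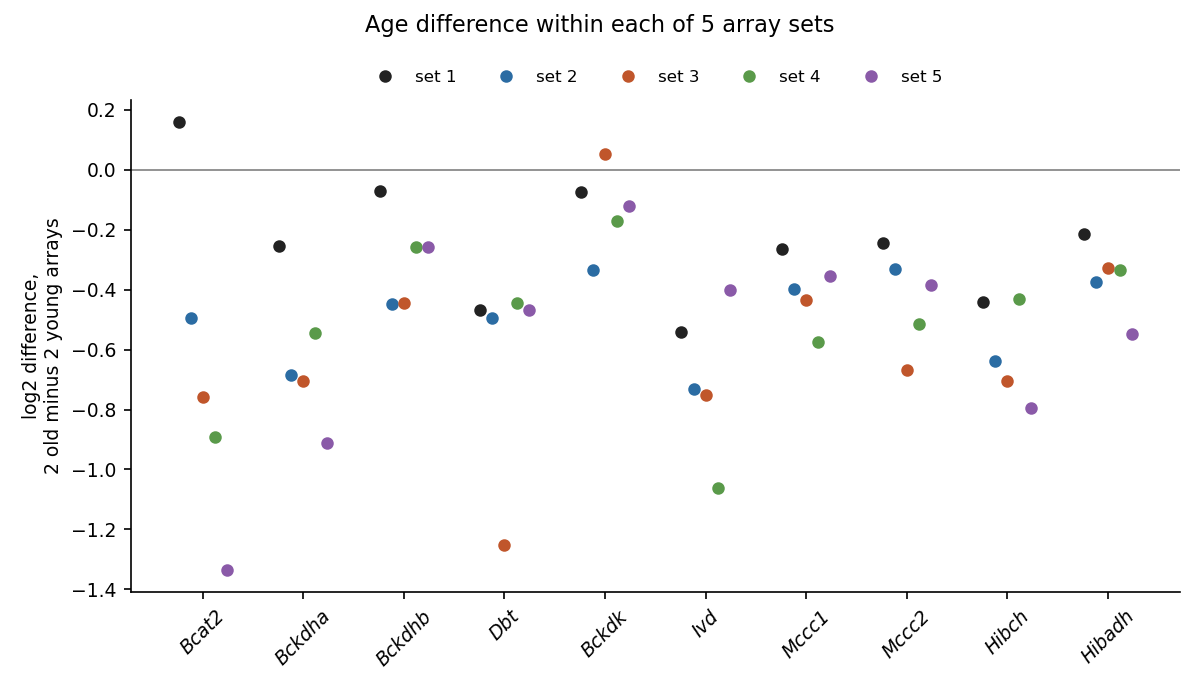
Log2 difference between the mean of 2 old and the mean of 2 young arrays within each of 5 array sets, 1 point per set and breakdown gene. Every point of 8 genes lies below 0; Bcat2 has 1 point above 0 at 0.16 and Bckdk 1 at 0.05.

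The genes also varied together between animals of the same age. Over the 20 arrays, deviations from the age-group means correlated above 0 in 38 of 45 pairs of genes, with a median Pearson r of 0.38 and a range from -0.69 to 0.86. The highest was Bckdhb with Mccc2 (r = 0.86), then Bcat2 with Bckdk (r = 0.75), Ivd with Mccc1 (r = 0.74) and Bckdha with Mccc2 (r = 0.72). The lowest was Bckdk with Hibch (r = -0.69). Array sets entered these values: once the set means were removed too, the median r was 0.57 and 44 of 45 pairs were above 0, with Bckdk and Hibch at 0.53 and the subunits Mccc1 and Mccc2 at 0.90 in place of 0.42. The pair still below 0 was Dbt with Bckdk, at -0.27. The arrays share scaling and tissue makeup, so these correlations are a description.

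**Figure D4:**
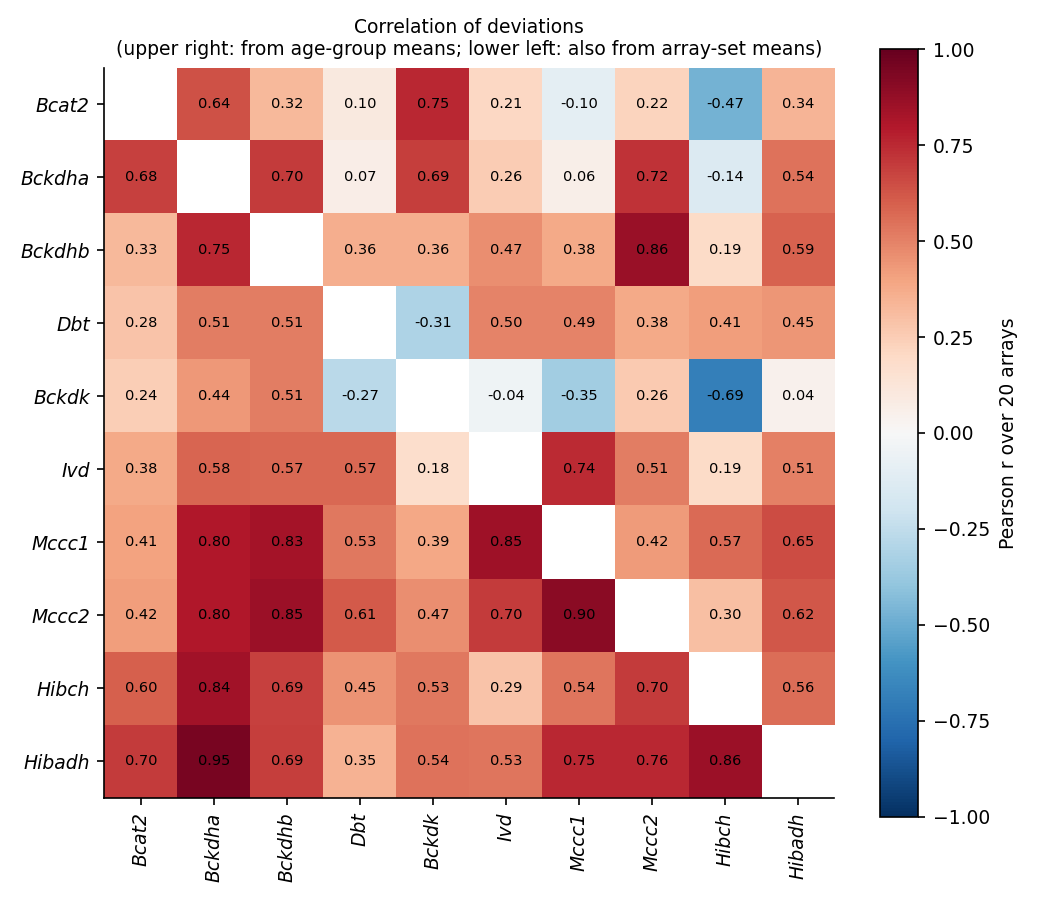
Pearson r between breakdown genes over 20 arrays, of deviations from the age-group means (upper right) and from both age-group and array-set means (lower left), on a colour scale. Pairs of Bcat2 or Bckdk with Hibch are below 0 in the upper right, and all but Dbt with Bckdk are above 0 in the lower left.

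Outside the group, the 5 genes whose deviations were most like the mean deviation of the 10, among 9265 others over the 20 arrays, were Rab12 (r = 0.89), Kcnj11 (r = 0.89), Klhl30 (r = 0.87), Fam174b (r = 0.86) and Akap1 (r = 0.85). Of these, Klhl30 differed by -0.51 (limma adjusted p = 0.0191) and Akap1 by -0.52 (adjusted p = 0.00341), and both fell. Rab12, Kcnj11 and Fam174b differed by -0.10, -0.24 and -0.20 and missed the threshold (adjusted p = 0.558, 0.109 and 0.232).

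The rest of the pathway was read from a list of 50 further genes, of which 48 were on the array and 40 passed the filter. Of the 40, 15 fell and 2 rose, and 28 estimates were below 0, with a median difference of -0.26; over all genes tested 7.49% were called lower, 11.2% higher, and 48.7% of estimates were below 0. In limma with the atrial index as a covariate, 2 of the 40 were called lower (Pcca and Pccb), as were 0.927% of all genes. In the propionyl-CoA steps, which take the carbon of valine and isoleucine into the tricarboxylic acid cycle, 6 of 8 tested genes fell. Pcca, the alpha subunit of propionyl-CoA carboxylase, read 9.11, 9.36 and 9.67 in old and 9.78, 9.91 and 10.14 in young arrays, with no overlap. Pcca fell by 0.51 ± 0.09 (limma adjusted p = 0.00025), or 29.9%. Its partner subunit Pccb fell by 0.40 (adjusted p = 0.00585), the epimerase Mcee by 0.60 (adjusted p = 0.00241), methylmalonyl-CoA mutase Mmut by 0.36 (adjusted p = 0.00202) and Mmaa, a protein that serves its cobalamin cofactor, by 0.48 (adjusted p = 0.00807). Without the 7 old arrays with Myl7 above 10 these differences were -0.27 for Pcca, -0.43 for Pccb, -0.35 for Mcee, -0.20 for Mmut and -0.13 for Mmaa, with adjusted p from 0.117 to 0.666. A second passing probe set of Mmut differed by -0.34 over all 20 arrays and missed the threshold (limma fit of all probe sets, adjusted p = 0.129).

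The arms were completed by other genes of the list. Auh, the hydratase that follows the carboxylase in the leucine arm, read 8.66, 9.29 and 9.66 in old and 9.68, 9.90 and 10.03 in young arrays, with no overlap. Auh fell by 0.64 ± 0.12 (limma adjusted p = 0.000947), or 35.9%; its difference was -0.24 without the 7 old arrays with Myl7 above 10 (adjusted p = 0.286). Acad8, the isobutyryl-CoA dehydrogenase of the valine arm, fell by 0.42 (adjusted p = 0.00531). Acat1, the thiolase that ends isoleucine breakdown, fell by 0.30 (adjusted p = 0.00748), against -0.18 without those 7 arrays (adjusted p = 0.398). Aldh6a1, the last enzyme of the valine arm, differed by -0.36 ± 0.15 and missed the threshold (adjusted p = 0.0896). With the sets as a block its adjusted p was 0.00214, in a fit that called 16.7% of all genes lower. Aldh6a1 was called in 2 of 12 fits with other settings, and its difference over the 12 ran from -0.43 to -0.14. Among 9 genes shared with fatty acid oxidation 5 fell, Acaa2, a thiolase, by 0.45 (adjusted p = 0.00164), and all 9 estimates were below 0. The 5 aldehyde dehydrogenases other than Aldh6a1 gave 0 calls in limma and no estimate below 0.

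**Figure D5:**
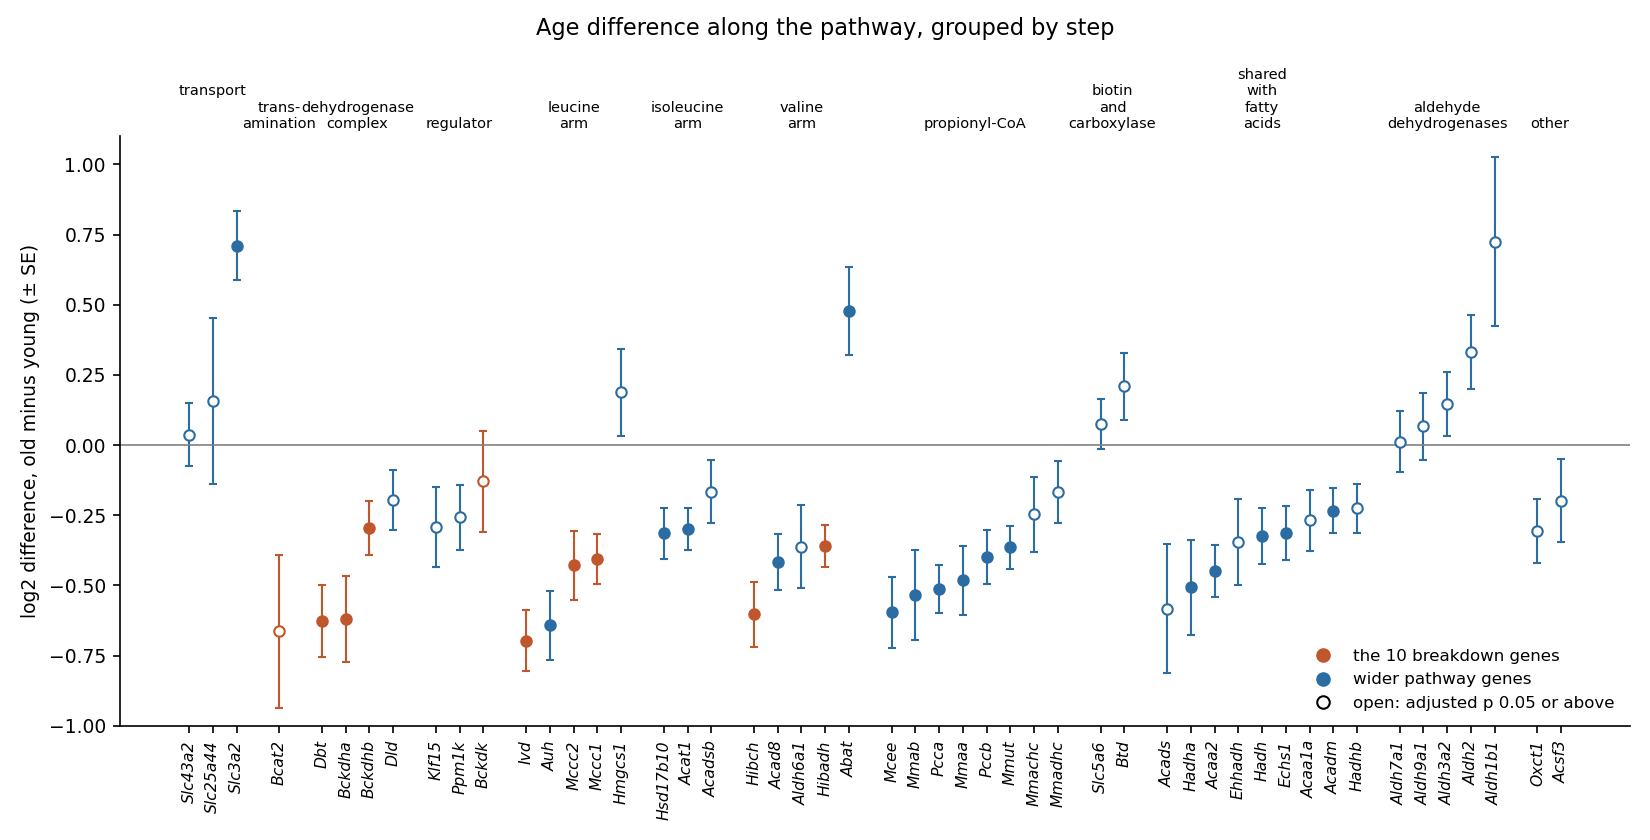
Log2 difference, old minus young, ± SE (n = 10 each) of the 10 breakdown genes and of 40 wider pathway genes, grouped by step; filled points passed a limma adjusted p of 0.05. Points of the dehydrogenase complex, the propionyl-CoA steps and the genes shared with fatty acids lie below 0, and those of transport and the aldehyde dehydrogenases lie above 0.

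The 2 wider genes that rose lie at the edges of the pathway. Slc3a2, the heavy chain that carries amino acid transporters to the cell surface, read 7.38, 7.87 and 8.39 in old and 6.77, 7.14 and 7.56 in young arrays. Slc3a2 rose by 0.71 ± 0.12 (limma adjusted p = 0.000317), and in the fit with the atrial index it was at 0.46 (adjusted p = 0.0706). The other was Abat, the GABA transaminase, at 0.48 (adjusted p = 0.0368), named after its values were seen. Its call was lost in 11 of 20 fits that left out 1 array (old 1, 4, 5, 6 or 10, or young 13, 14, 16, 17, 18 or 20), with an adjusted p of up to 0.0715, and with quantile normalization (adjusted p = 0.079). Slc7a5, a light chain that pairs with Slc3a2, did not pass the filter, with old arrays from 2.44 to 7.17 and young arrays from 2.18 to 2.72; it too was named after its values were seen. Slc25a44, the mitochondrial carrier for these amino acids, differed by 0.16 ± 0.30 (limma adjusted p = 0.761). Its signal was close to the filter, at 2.87 to 5.62 in old and 3.38 to 5.37 in young arrays, and above log2 4 on 15 of 20 arrays. Without the 7 old arrays with Myl7 above 10, 0 of the 40 genes were called in either direction, and 0.679% of all genes were called lower. Without old arrays 8 and 9, 10 fell and 2 rose, and 4.75% of all genes were called lower.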

How the data were processed

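Groups, 10 old and 10 young arrays, were taken from the sample titles. The deposited table holds 1 log2 value per probe set and array, made by the authors with GCRMA per the submitters' processing notes; a GCRMA version is not given in the sources used here, and the values, 0.98 to 16.0, set the log2 scale. GCRMA sets undetected transcripts near a common floor. Of 45101 probe sets, 34945 had 1 gene in the platform annotation. A probe set needed a log2 value above 4 in at least 10 arrays, and each gene was read from the brightest of its passing probe sets by mean. Old and young were compared with limma 3.58.1 (R 4.3.3), no covariate, Benjamini-Hochberg over 9275 genes; a call needed an adjusted p under 0.05. The fit was tested on simulated data. The atrial index is the mean of linear Myl7 and Sln, each relative to its highest array. Array sets came from average linkage clustering of residuals. The members and lists were chosen with earlier results of these data known. Named beyond the 10 genes were 6 listed regulators and enzymes, the 10 other wider genes with the smallest p, and the 5 genes most like the 10. The number of arrays limits the precision, and p-values measure the spread between these mice as labelled.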

Additional observations from a re-analysis of the deposited data

How the results depend on the processing

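No paired analysis was possible because the old and young samples share no replicate numbers. Of the 10 breakdown genes, 8 were called lower as reported; limma gave 1 with the atrial index as a covariate, 0 without the 7 old arrays with Myl7 above 10 (4 at an unadjusted p under 0.05), 2 with the index and the array sets together, and 7 to 9 when 1 array at a time was left out. Of the wider genes, 15 were called lower as reported, and 2, 0 and 6 in those 3 fits, with 13 to 16 when 1 array was left out. Of all genes, 7.49% were called lower as reported, and 0.927%, 0.679% and 1.89% in those 3 fits. The 2 wider genes called higher became 1 with quantile normalization, 0 in the fit with the index and 0 in that without the 7 arrays, 4 with the sets as a block, 1 with sets and index, and 1 to 3 when 1 array was left out. Estimates changed sign for Slc25a44 (-0.095 with the index, -0.45 without the 7 arrays, -0.012 with sets and index) and for Dld (0.018 with the index, 0.076 without the 7 arrays). The cause was not tested; leaving out the 7 arrays also leaves fewer samples. Leaving out old arrays 8 and 9, by Adipoq above a log2 value of 8, was chosen after seeing the data. Probe sets near the floor have no measurable order, which limits Bcat1, the second Bckdk probe set and, on the arrays where it was low, Slc25a44.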
